A study of Mus musculus with 6 samples.

Results

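The genes described here encode 45 lysosomal enzymes and membrane proteins of the mouse. They were picked by name, with earlier results of these data known. They are 9 cathepsins, 20 other hydrolases, 7 membrane proteins, 5 genes of the proton pump, and 4 genes for lumenal cofactors and a transcriptional regulator, of 22482 genes in the deposited table. Each of the 45 was found in the table by its symbol, on 1 row, and 42 of them carry the term Lysosome in the authors' annotation. The samples were aortic vascular smooth muscle cells of C57BL/6 mice in a medium with 10% serum, 48 h after an adenovirus was added. The labels give 3 libraries of cells that received a Myocd knockdown virus and 3 libraries of cells that received a negative control virus, which the series' design text calls wildtype. Myocd encodes myocardin, a coactivator of smooth muscle genes. Whether libraries of the same group were grown or taken independently is not in the labels, so each p-value reflects library-to-library spread that may be technical in origin.

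A lysosome digests proteins, lipids, sugars and nucleic acids that reach it by endocytosis or autophagy. Most of its hydrolases work in an acid lumen, which a membrane proton pump, the vacuolar ATPase, maintains, and most soluble enzymes are carried there by receptors that bind mannose phosphate. Many lysosomal genes are controlled together by the transcription factor TFEB and its relatives, which bind a palindromic E-box in their promoters. In vascular smooth muscle, cathepsins can also be secreted, and several of them cut elastin or collagen of the vessel wall.

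Depth, the number of fragments recovered from the deposited columns, was 7528158 to 9117653 fragments in the libraries labelled knockdown and 9303524 to 9793794 in the control libraries. Myocd, the targeted gene, went against its label. Its level was 131.7, 130.1 and 145.5 FPKM (fragments scaled by transcript length and by library size) in the libraries labelled knockdown, against 0.0355, 0 and 0.125 FPKM in the control libraries. The groups were far apart; the size of the log2 difference depended on the setting, from 7.02 with a pseudocount of 1 to 11.75 with a pseudocount of 0.01, because the control values are near 0. Every direction below therefore follows the label of the library, and "labelled knockdown" does not mean that Myocd RNA was low. Among 8 smooth muscle markers, Acta2 was called higher, with 346, 332 and 342 FPKM in the libraries labelled knockdown. The control libraries had 63.1, 67.1 and 71.5 FPKM of it. Des was called higher too, by 0.20 on the log2 scale (limma adjusted p = 0.0411). Tagln had 8.39, 5.49 and 8.69 FPKM in the libraries labelled knockdown, against 0, 0.26 and 1.65 FPKM in the control libraries, and passed in edgeR (adjusted p = 0.00255) but not in limma (adjusted p = 0.0555). Lmod1 was called too, but passed the filter through the libraries labelled knockdown alone. Smtn and Mylk overlapped between groups, with log2 differences of −0.024 and 0.081 that did not pass (limma adjusted p = 0.904 and 0.636). Myh11 was under 0.1 FPKM and Cnn1 under 0.4 FPKM in all 6 libraries. Macrophages are rich in lysosomes, and 13 of the 15 macrophage markers in the table were under 1 FPKM in every library. Marco, Tyrobp and C1qc were at 0 in all 6. Their summed level was 14.8 to 16.4 FPKM in the libraries labelled knockdown and 12.8 to 13.5 FPKM in the control libraries, nearly all of it Mpeg1, and 0.199 to 1.39 against 0.485 to 1.41 FPKM without Mpeg1. All 7 endothelial markers were also under 1 FPKM in every library. Of 5 mesothelial markers 2 were so, but Krt19 averaged 232 FPKM in the libraries labelled knockdown and 256 FPKM in the control libraries. Msln averaged 80.0 and 75.9 FPKM. Of 6 fibroblast markers 2 were under 1 FPKM in every library, and Pdgfra averaged 16.1 and 16.2 FPKM. Pdgfra, Dpt and Col15a1 overlapped between groups. Dcn did not, with 4.6, 5.0 and 7.2 FPKM in the libraries labelled knockdown, against 2.8, 2.7 and 4.4 FPKM in the control libraries. Its log2 difference of 0.76 did not pass (limma adjusted p = 0.126; edgeR adjusted p = 0.0536). No marker of these lists was called by limma. In whole-culture RNA, fewer cells of a type and less RNA per cell cannot be told apart.

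Estimates of lysosomal genes leaned upward in the libraries labelled knockdown, by small amounts. Of the 43 genes with at least 0.5 FPKM in at least 3 libraries, 8 were called higher at an adjusted p under 0.05 (limma, Benjamini-Hochberg over 11612 genes), none lower, and 35 did not pass. The background was 1.83% of all tested genes called higher and 1.61% called lower, 3.44% in all. Among the 6899 tested genes that averaged 10 FPKM or more, 2.57% were called higher and 2.12% lower. The 8 genes were Npc2, Ppt1, Ctsb, Asah1, Ctsd, Lamp1, Grn and Atp6ap1. Their positions are given below as the loci of the deposited table, with 1 added to each start. The build was taken as mm10, because starts then matched GRCm38 for 6261 genes. All of the 8 changes were small, from 0.21 to 0.40 on the log2 scale. At an unadjusted p under 0.05 there were 16 genes higher and 4 lower, the 4 being Atp6v0c, Cln3, Lipa and Tfeb. Over all 11612 tested genes, 1189 were higher and 1414 lower at that unadjusted p in limma. The quasi-likelihood test of edgeR on the recovered fragments called 12 of the 43 higher and none lower, against 5.45% and 4.5% of all genes it tested, and 7 of the 12 were among the 8. DESeq2 called 11 of the 40 that it tested higher and none lower, against 4.15% and 3.38% of its tested genes. Of the 43, 35 had an estimate above 0 and 8 below, beside 47.8% and 52.2% of all tested genes. The median log2 fold change was 0.12 over the 43 and −0.0098 over all tested genes. In 19 of the 43 every library labelled knockdown lay above every control library, and in 4 every one lay below, beside 13.3% and 15.6% of all tested genes. The number of calls rested on the full set of libraries: leaving out any 1 library left 1 to 3 of the 43 called. With control replicate 3 left out 3 were called and with knockdown replicate 3 left out 2, and with any other library left out 1 was called. Calls over all tested genes fell too, from 400 to between 44 and 178. In these fits the filter asked for as many libraries as the smaller group held. limma without its mean-variance trend called 1 of the 43, Npc2.

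**Figure D1:**
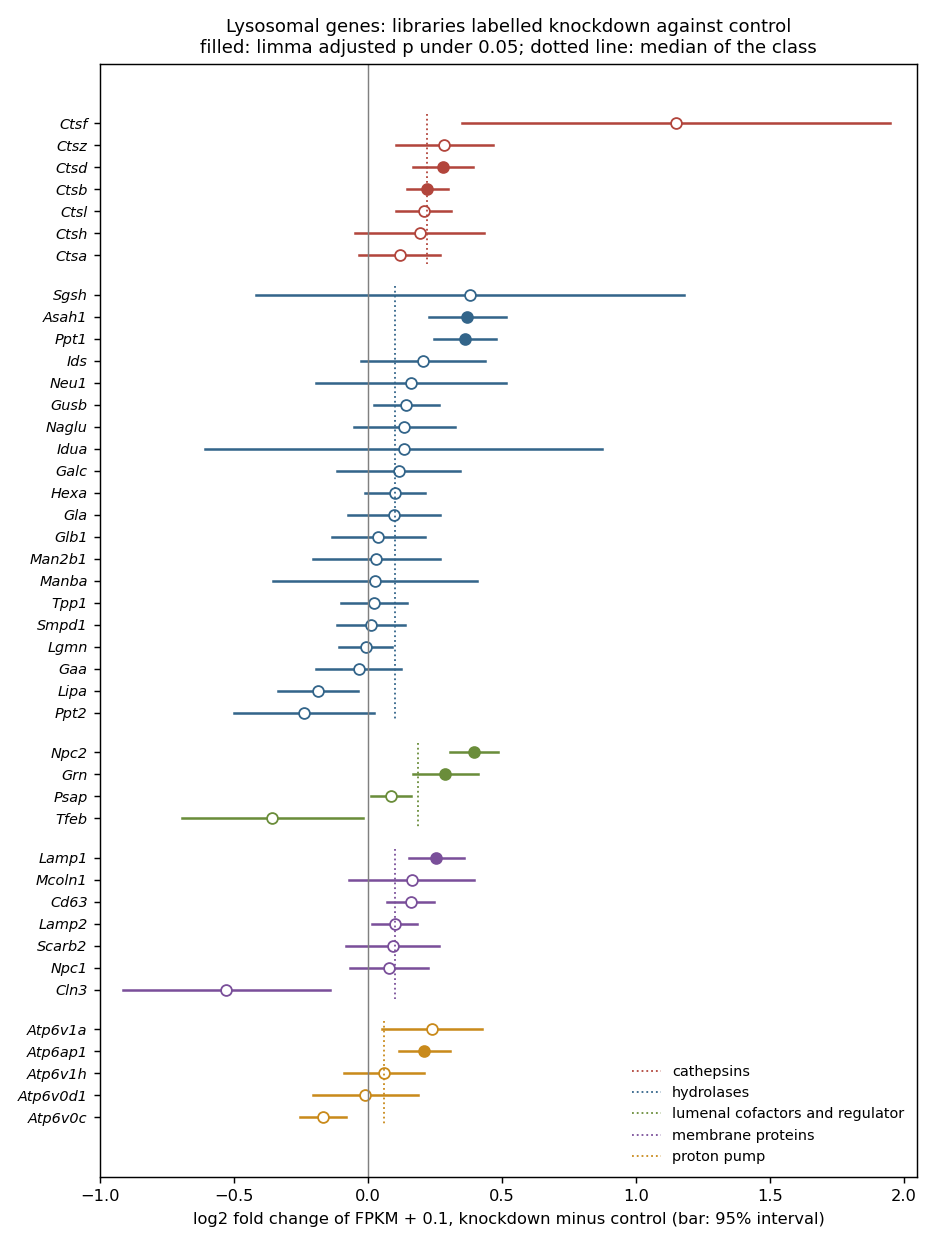
Estimates for the 43 tested lysosomal genes by class, with the log2 fold change of FPKM + 0.1 (labelled knockdown minus control) on the horizontal axis and bars for the 95% confidence interval; filled points mark genes with a limma adjusted p under 0.05. Points of 35 genes lie to the right of 0, and the 8 filled ones lie between 0.21 and 0.40.

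The classes differed in how many of their members passed, although no test was made between them. They also differed in level. The median of the tested genes' mean FPKM was lowest in the other hydrolases, at 19.6. It was 128 in the cathepsins and highest, at 182, in the lumenal cofactors and regulator. The 8 called genes averaged from 44.1 FPKM (Ppt1) to 286 FPKM (Lamp1). Whether level accounts for the different counts was not tested. Among cathepsins, 2 of 7 tested were called higher, with a median log2 fold change of 0.22 (0.21 without Ctsf, which is treated below). Among the other hydrolases, 2 of 20 were called higher, with a median of 0.098. Among membrane proteins it was 1 of 7 with a median of 0.099, and in the proton pump 1 of 5 with a median of 0.060. Of the lumenal cofactors and regulator, 2 of 4 were called higher, with a median of 0.19. Summed over a class, cathepsins came to 1135, 1143 and 1181 FPKM in the libraries labelled knockdown, against 958.5, 972 and 1025 FPKM in the control libraries. Membrane proteins summed to 1038, 1043 and 1045 FPKM, against 953, 924 and 906 FPKM in the control libraries. Neither pair of sums overlapped. Hydrolases summed to 542, 539 and 557 FPKM in the libraries labelled knockdown, against 503, 513 and 507 FPKM in the control libraries, also without overlap. The lumenal cofactors and regulator summed to 787, 806 and 813 FPKM, against 687, 706 and 691 FPKM in the control libraries, again without overlap. The pump genes summed to 336, 328 and 329 FPKM, against 327.5, 323 and 309 FPKM in the control libraries, a gap of less than 1 FPKM at its narrowest. All 45 genes together made up 0.909%, 0.901% and 0.917% of all FPKM in the libraries labelled knockdown, and 0.812%, 0.817% and 0.819% in the control libraries.

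**Figure D2:**
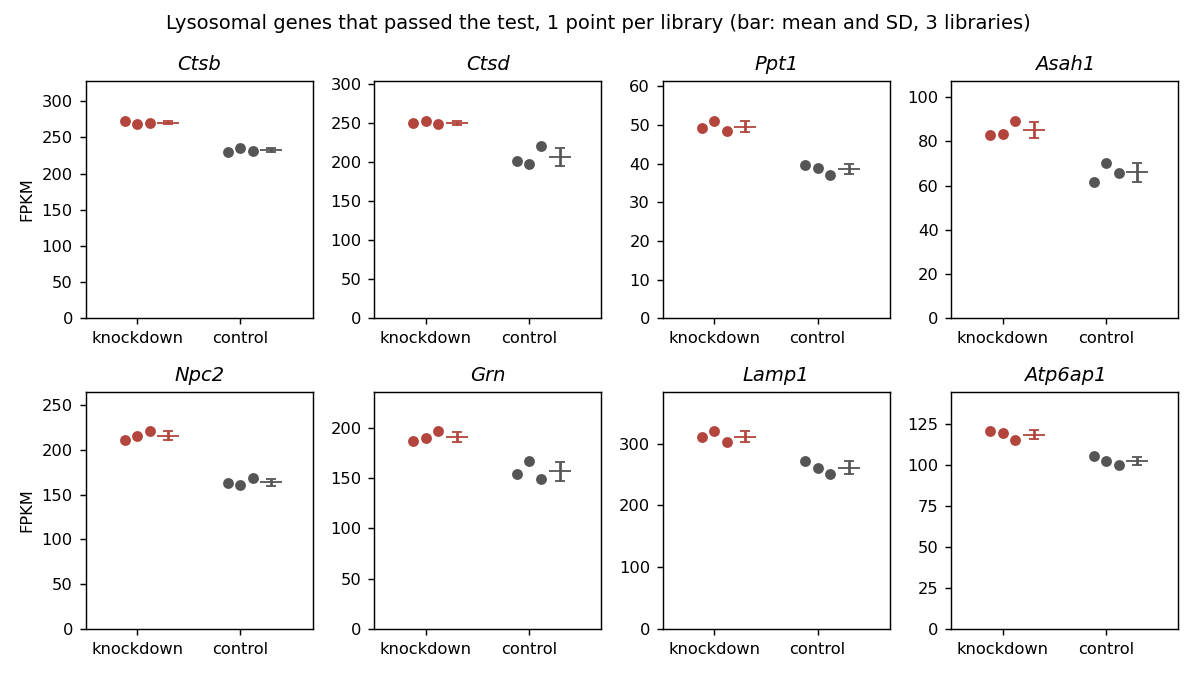
FPKM in each library of the 8 lysosomal genes called higher by limma, 1 panel a gene, with the libraries labelled knockdown left of the control libraries; points are libraries, bars their mean and SD. In every panel the 3 points labelled knockdown lie above the 3 control points.

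Npc2 (chr12:84754560-84773112, minus strand), a soluble lumenal protein that binds cholesterol and hands it to the membrane protein Npc1, had the lowest adjusted p among the lysosomal genes. It had 211, 216 and 221 FPKM in the libraries labelled knockdown, against 163, 161 and 168 FPKM in the control libraries, a 1.32-fold difference (log2 0.40, SE 0.038, limma adjusted p = 0.00717; edgeR adjusted p = 2.82e-05). The groups were well apart, and Npc2 passed under all 19 other settings tried, with log2 values of 0.35 to 0.41. Its partner Npc1 had 14.3, 13.7 and 14.2 FPKM, against 13.3, 13.6 and 13.1 FPKM in the control libraries. The groups of Npc1 did not overlap, but the difference of 0.076 on the log2 scale did not pass (limma adjusted p = 0.506).

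Grn (chr11:102430315-102447682, plus strand) encodes progranulin, a secreted glycoprotein that is cut into granulins in the lysosome. It had 187, 189.9 and 196 FPKM in the libraries labelled knockdown, against 154, 167 and 149 FPKM in the control libraries (log2 0.29, SE 0.052, limma adjusted p = 0.0354). The groups were apart, though control replicate 2 lay closer to the upper group than the other 2 controls. Psap, the precursor of the saposins that help enzymes to reach sphingolipids, had 385, 395 and 392 FPKM, against 364, 372 and 367 FPKM in the control libraries. Its groups did not overlap, and the log2 difference of 0.086 passed edgeR (adjusted p = 0.0391) but not limma (adjusted p = 0.179). It came to 0.014 with quantile normalization (limma adjusted p = 0.837), and missed the threshold in edgeR without a filter (adjusted p = 0.0519). Tfeb, the regulator named above, ran the other way with 5.05, 5.71 and 3.98 FPKM in the libraries labelled knockdown, against 6.37, 5.99 and 6.41 FPKM in the control libraries. The groups did not overlap, but the log2 difference of −0.36 (95% confidence interval −0.70 to −0.019) did not pass (limma adjusted p = 0.203). In recovered fragments Tfeb had 115, 120 and 68 against 110, 121 and 134, and these overlapped (edgeR log2 −0.11, adjusted p = 0.712).

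Promoters are shown for 4 genes because TFEB and its relatives bind a known E-box: Lamp1 and Ctsd were called higher and carry it, Mcoln1 carries it and did not pass, and Npc2 carries none. The windows are from RefSeq (GRCm38.p6) and run from 250 bases before to 50 after the annotated start of each gene, with every CACGTG in capitals. They lie at chr8:13158911-13159210 on the plus strand for Lamp1 and at chr7:142387778-142388077 on the minus strand for Ctsd. Those of Mcoln1 and Npc2 lie at chr8:3500269-3500568 on the plus strand and at chr12:84773063-84773362 on the minus strand.
Lamp1: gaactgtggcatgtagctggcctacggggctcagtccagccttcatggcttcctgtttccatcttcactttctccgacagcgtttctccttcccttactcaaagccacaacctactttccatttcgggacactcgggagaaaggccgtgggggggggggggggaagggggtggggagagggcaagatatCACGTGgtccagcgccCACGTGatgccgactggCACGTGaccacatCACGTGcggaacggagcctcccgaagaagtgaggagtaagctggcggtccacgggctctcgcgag
Ctsd: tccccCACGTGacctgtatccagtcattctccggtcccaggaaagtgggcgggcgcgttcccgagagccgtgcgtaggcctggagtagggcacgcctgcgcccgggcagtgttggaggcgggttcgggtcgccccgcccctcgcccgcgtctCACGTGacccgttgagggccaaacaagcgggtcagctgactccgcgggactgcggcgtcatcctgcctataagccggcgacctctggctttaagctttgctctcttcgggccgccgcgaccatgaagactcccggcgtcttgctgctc
Mcoln1: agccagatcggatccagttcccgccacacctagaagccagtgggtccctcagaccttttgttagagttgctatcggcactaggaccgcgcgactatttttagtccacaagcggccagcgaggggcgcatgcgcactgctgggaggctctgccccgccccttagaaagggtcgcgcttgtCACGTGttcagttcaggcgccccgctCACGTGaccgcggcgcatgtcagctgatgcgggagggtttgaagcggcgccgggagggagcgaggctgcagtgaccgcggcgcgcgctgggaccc
Npc2: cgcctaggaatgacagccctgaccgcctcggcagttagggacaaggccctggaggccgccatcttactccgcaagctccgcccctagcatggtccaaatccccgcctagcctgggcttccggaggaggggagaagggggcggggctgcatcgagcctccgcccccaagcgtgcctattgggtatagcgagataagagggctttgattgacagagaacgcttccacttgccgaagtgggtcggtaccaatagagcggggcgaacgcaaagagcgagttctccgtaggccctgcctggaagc

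The core CACGTG reads the same on both strands, so 1 search covers both. It stood in the windows of 15 of the 40 lysosomal genes that had a window (37.5%), beside 8.09% of 27025 genes in the RefSeq table and 11.8% of 8638 genes that were tested here. Lamp1 had 4 copies, Ctsd 2 and Mcoln1 2. The copies of Lamp1 began 61, 45, 28 and 15 bases before the start, those of Ctsd 245 and 98 before it, and those of Mcoln1 71 and 45 before it. Ctsa, Cln3 and Gla had 2 copies each, and the other genes with a match had 1. The longer form TCACGTG, which overlaps the core by its own construction and was searched on both strands, stood in 13 of the 40 genes (32.5%), beside 4.29% of genes in the RefSeq table and 7.10% of the 8638 tested genes. No windows were given for Ctsb, Ctsh, Asah1, Npc1 and Atp6v1h. Of the 15 tested genes with the core, 2 were called higher, and of the 23 tested genes with a window and without it, 4. Their median log2 fold changes were 0.13 with the core and 0.10 without. A match describes these letters only, and says nothing of whether a factor was bound.

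**Figure D3:**
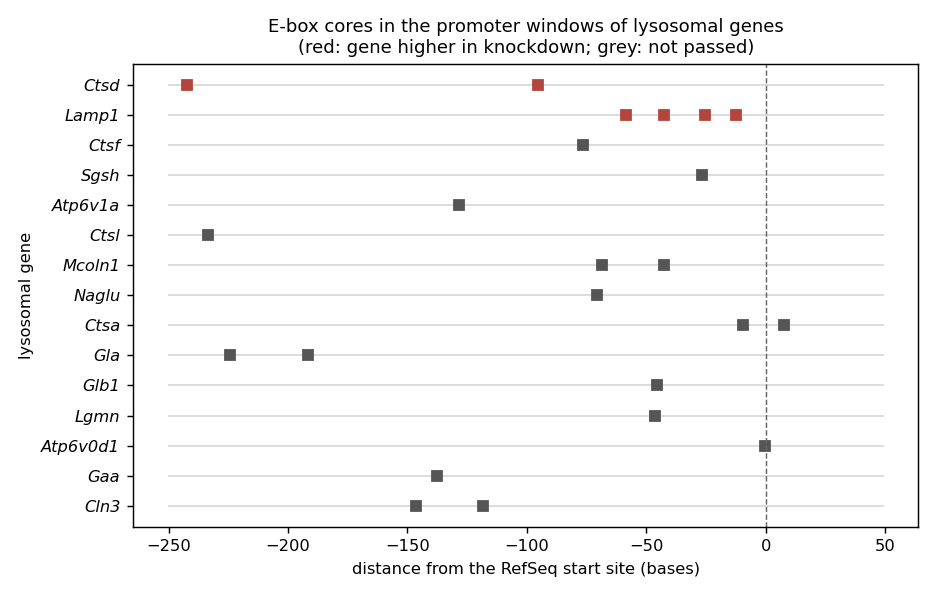
Positions of the core E-box in promoter windows of the lysosomal genes that hold it, with the distance from the annotated start in bases on the horizontal axis and 1 row a gene; squares stand at the centre of each match, red for genes called higher and grey for genes that did not pass. Lamp1 with 4 squares and Ctsd with 2 are the called genes among the 15.

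The cathepsins are proteases of several catalytic types, and the 6 tested without Ctsf all had estimates above 0, although limma called only Ctsb and Ctsd. Ctsb (chr14:63122462-63177793, plus strand), a cysteine protease that also trims dipeptides from protein ends, had 273, 268 and 269.6 FPKM in the libraries labelled knockdown, against 229.7, 235 and 232 FPKM in the control libraries (log2 0.22, SE 0.033, limma adjusted p = 0.0203). Ctsd (chr7:142325837-142388038, minus strand), the main aspartic protease of the lysosome, had 249.8, 253 and 249 FPKM, against 201, 198 and 220.4 FPKM in the control libraries (log2 0.28, SE 0.048, limma adjusted p = 0.0304). Both pairs of groups were apart, and both genes passed edgeR too (adjusted p = 0.00013 for Ctsb and 0.000148 for Ctsd).

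Ctsl, a cysteine endopeptidase able to cut elastin and collagen, was the most abundant cathepsin. It had 365, 370.1 and 389.9 FPKM in the libraries labelled knockdown, against 315, 321 and 339 FPKM in the control libraries. The groups were apart, and the log2 difference of 0.21 (SE 0.044) just missed the threshold in limma (adjusted p = 0.0549) and passed in edgeR (adjusted p = 0.0069). Ctsz, a carboxypeptidase, had 139, 135 and 147 FPKM, against 103, 116 and 127 FPKM in the control libraries. Its groups were also apart, with control values more spread, and the log2 difference of 0.28 (SE 0.078) passed in edgeR (adjusted p = 0.0258) but not in limma (adjusted p = 0.0917). Ctsa, a serine carboxypeptidase that protects other lysosomal enzymes, had 94.0, 102 and 111 FPKM, against 96.6, 90.6 and 95.5 FPKM in the control libraries. Knockdown replicate 1 lay among the controls, and Ctsa passed in edgeR only (adjusted p = 0.0408; limma adjusted p = 0.335). Ctsh, an aminopeptidase, had 12.2, 11.3 and 12.5 FPKM against 11.99, 9.48 and 10.2 FPKM, with overlapping groups.

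The other 3 cathepsins were scarce. Ctsf had 0.931, 1.05 and 1.11 FPKM in the libraries labelled knockdown, against 0.478, 0.555 and 0.248 FPKM in the control libraries, which is 18, 20 and 18 fragments against 10, 11 and 5. It passed the filter with 4 libraries, only 1 of them a control, and its log2 difference of 1.15 (SE 0.34), by far the widest of the 43, did not pass (limma adjusted p = 0.111; edgeR adjusted p = 0.0521). Ctsk, a collagen-cutting protease known from osteoclasts, and Ctss, an elastin-cutting protease known from antigen-presenting cells, were not tested. Ctsk had 2, 8 and 3 fragments in the libraries labelled knockdown, against 4, 1 and 5 in the control libraries. Ctss had 0.803, 0.49 and 0.569 FPKM in the libraries labelled knockdown, against 0.223, 0.157 and 0.457 FPKM in the control libraries, which is 10, 6 and 6 fragments against 3, 2 and 6. The groups of Ctss did not overlap in FPKM and touched in fragments, and those of Ctsk overlapped.

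Among the 20 other hydrolases, Ppt1 and Asah1 were called higher. Ppt1 (chr4:122836242-122886056, plus strand), which removes palmitate from proteins, had 49.2, 51.2 and 48.4 FPKM in the libraries labelled knockdown, against 39.6, 39.0 and 37.1 FPKM in the control libraries (log2 0.36, SE 0.050, limma adjusted p = 0.0166; edgeR adjusted p = 0.00069). The groups were far apart relative to the spread within them. Ppt2, a related thioesterase, had 8.72, 7.06 and 7.39 FPKM against 8.30, 9.48 and 9.59 FPKM, with overlapping groups and a log2 difference of −0.24 that did not pass (limma adjusted p = 0.255). Asah1 (chr8:41340197-41374773, minus strand), the acid ceramidase, had 82.8, 83.5 and 89.5 FPKM in the libraries labelled knockdown, against 61.7, 70.4 and 65.9 FPKM in the control libraries (log2 0.37, SE 0.060, limma adjusted p = 0.027). Its FPKM groups were apart, but the difference in fragments was smaller (edgeR log2 0.13, adjusted p = 0.089) and did not pass.

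Of the 18 hydrolases that did not pass, Gusb, Hexa and Ids had groups apart with the libraries labelled knockdown higher, and Lipa had groups apart with them lower. Gusb, the beta-glucuronidase, had 28.5, 27.2 and 28.3 FPKM against 25.6, 24.7 and 25.8 FPKM (log2 0.14, limma adjusted p = 0.168). Lipa, the acid lipase that frees cholesterol and fatty acids from lipoprotein lipids, had 29.1, 29.3 and 26.2 FPKM against 30.9, 33.3 and 32.2 FPKM (log2 −0.19, limma adjusted p = 0.144; edgeR adjusted p = 0.0543). Lgmn, an asparagine-specific protease that matures cathepsins, had 73.9, 71.7 and 76.4 FPKM against 73.2, 74.8 and 75.3 FPKM, and its groups overlapped fully. The estimates of Gaa, Glb1, Tpp1, Smpd1, Man2b1 and Manba lay within 0.04 of 0 on the log2 scale. Sgsh, a heparan sulfate sulfatase, had 4.68, 3.68 and 9.63 FPKM in the libraries labelled knockdown, against 5.25, 3.65 and 3.88 FPKM in the control libraries, with an estimate of 0.38 and knockdown replicate 3 alone above all controls. In fragments Sgsh had 187, 165 and 182 against 190, 171 and 179, and these overlapped (edgeR log2 0.16, adjusted p = 0.388).

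Lamp1 (chr8:13159135-13175338, plus strand), an abundant glycoprotein of the lysosomal membrane whose promoter is printed above, was the membrane protein called higher. It had 311, 319.9 and 303 FPKM in the libraries labelled knockdown, against 272, 261 and 250.5 FPKM in the control libraries (log2 0.25, SE 0.044, limma adjusted p = 0.0312; edgeR adjusted p = 0.000753). The groups were apart. Lamp2, its close relative and a receptor in chaperone-mediated autophagy, had 165, 167 and 168 FPKM against 153, 159 and 155 FPKM, also without overlap. Its log2 difference of 0.099 did not pass (limma adjusted p = 0.165; edgeR adjusted p = 0.0555). Cd63, a tetraspanin of late endosomes and exosomes and the most abundant of the 45 by FPKM, had 472, 469 and 487 FPKM, against 442, 420.3 and 418 FPKM in the control libraries. Its groups were apart, and the log2 difference of 0.16 (SE 0.038) passed in edgeR (adjusted p = 0.0182) but not in limma (adjusted p = 0.0705).

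Mcoln1, the calcium-releasing cation channel of the lysosome, had 22.9, 20.9 and 21.0 FPKM in the libraries labelled knockdown, against 18.1, 17.7 and 22.4 FPKM in the control libraries. Control replicate 3 lay within the upper group, and the log2 difference of 0.16 did not pass (limma adjusted p = 0.379). Scarb2, an integral protein of the lysosomal membrane, had 48.2, 48.7 and 46.4 FPKM against 48.1, 46.6 and 40.2 FPKM, with overlap. Cln3, a membrane protein mutated in a childhood neuronal storage disease, was the membrane gene with a lower estimate. It had 3.55, 4.48 and 4.95 FPKM in the libraries labelled knockdown, against 6.34, 5.33 and 7.18 FPKM in the control libraries, with a log2 difference of −0.53 (SE 0.16) that did not pass (limma adjusted p = 0.122). In fragments it had 32, 43 and 26 against 34, 44 and 54, and these overlapped (edgeR log2 −0.22, adjusted p = 0.621).

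In the proton pump, an accessory subunit was called higher, and the subunits of the enzyme itself were split in sign. Atp6ap1 (chrX:74297097-74304721, plus strand), the accessory subunit needed for assembly of the pump, had 121, 119 and 115 FPKM in the libraries labelled knockdown, against 105, 102 and 99.8 FPKM in the control libraries (log2 0.21, SE 0.041, limma adjusted p = 0.0424; edgeR adjusted p = 0.00281). Its groups were apart. Atp6v0c, the proteolipid that forms the rotating ring in the membrane, had 103, 103 and 106 FPKM in the libraries labelled knockdown, against 117, 116 and 119 FPKM in the control libraries. These groups were apart in the other direction, and the log2 difference of −0.17 (SE 0.036) just missed the threshold (limma adjusted p = 0.0546; edgeR adjusted p = 0.132). Atp6v1a, the catalytic subunit, had 52.5, 44.7 and 48.9 FPKM against 43.01, 43.04 and 37.8 FPKM, without overlap (log2 0.24, limma adjusted p = 0.142). Atp6v0d1 and Atp6v1h, further subunits, overlapped between groups, with log2 differences of −0.011 and 0.060.

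FPKM and fragment numbers did not always give the same size of difference. Of the 43 tested genes, 8 (18.6%) differed by more than 0.1 between the log2 fold change of FPKM and that of fragments, beside 22.3% of 11361 genes compared in all. Opposite signs were found for 3 of the 43, beside 1413 of the 11361. Fragments scaled to library size and divided by FPKM give the transcript length implied by the deposited values, in kilobases up to a constant of the library. For Asah1 it came to 2.08, 2.09 and 1.91 in the libraries labelled knockdown, against 2.51, 2.37 and 2.40 in the control libraries, without overlap. For Grn it came to 2.27, 2.25 and 2.29, against 2.49, 2.33 and 2.57. Both implied lengths were shorter in the libraries labelled knockdown, by a factor of 0.834 for Asah1 and 0.921 for Grn, so that part of each FPKM difference was not one of fragments. Grn still passed in edgeR (log2 0.19, adjusted p = 0.00565), and Asah1 did not.

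**Figure D4:**
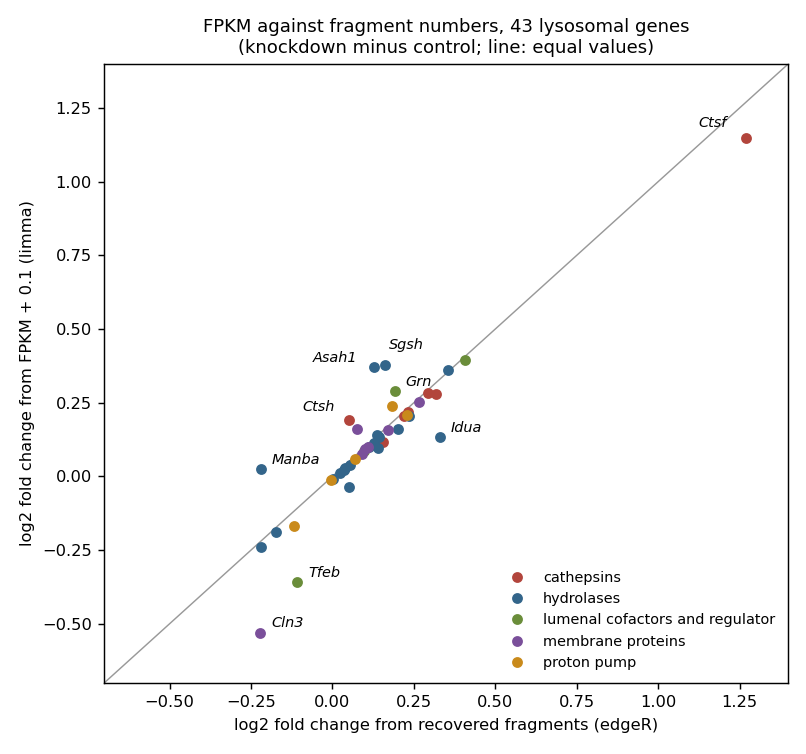
Log2 fold change (labelled knockdown minus control) of each of the 43 tested lysosomal genes from FPKM + 0.1 on the vertical axis and from recovered fragments on the horizontal axis, coloured by class, with a line of equal values. Asah1 and Sgsh lie above the line, Cln3 and Tfeb below it.

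Beside the 45 genes, 84 others of the lysosomal system were measured in 6 lists: further pump subunits, enzymes and activators, membrane proteins, delivery, nutrient sensing and cystatins. Of the 80 tested, 2 were called higher, Acp2 among them, 1 lower (Vps29), and 77 did not pass, with a median log2 fold change of 0.086. These shares of limma calls lie near the background of 1.83% and 1.61%. Of the 80, 56 had an estimate above 0 and 24 below, beside 47.8% and 52.2% of all tested genes. In 22 every library labelled knockdown lay above every control library, and in 8 every one lay below, beside 13.3% and 15.6% of all tested genes. edgeR called 10 higher and 1 lower, beside 5.45% and 4.5% of all genes it tested. Acp2, an acid phosphatase, had 12.5, 11.5 and 11.1 FPKM in the libraries labelled knockdown, against 9.29, 8.76 and 8.33 FPKM in the control libraries (log2 0.41, limma adjusted p = 0.0483; edgeR adjusted p = 0.0149). Its groups were apart. Vps29, a subunit of the retromer that returns receptors from endosomes, had 76.9, 89.2 and 85.0 FPKM in the libraries labelled knockdown, against 109.7, 110.4 and 114 FPKM in the control libraries (log2 −0.41, limma adjusted p = 0.0186). In fragments the difference of Vps29 did not pass (edgeR log2 −0.15, adjusted p = 0.141).

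In the list of enzyme delivery, 1 of 10 tested was called, which was Vps29. The mannose phosphate receptors M6pr and Igf2r had groups apart with the libraries labelled knockdown higher, and passed in edgeR (adjusted p = 0.00814 for M6pr and 0.00697 for Igf2r) but not in limma (adjusted p = 0.0555 and 0.108). Of the 13 other pump subunits limma called none, with 5 at an unadjusted p under 0.05, while edgeR called Atp6v1d and Atp6v1e1 higher and Tcirg1 lower. Over all 11612 tested genes, 2603 had an unadjusted p under 0.05 in limma. The counts of this kind given for each list are to be read beside that share. Tcirg1, a membrane subunit known from osteoclasts, had 47.4, 43.9 and 52.9 FPKM in the libraries labelled knockdown, against 57.4, 61.7 and 62.9 FPKM in the control libraries (log2 −0.34, limma adjusted p = 0.0611; edgeR adjusted p = 0.00373). Its groups were apart. Of the 15 genes of the TFE factors and nutrient sensing none was called by limma or edgeR, with 1 at an unadjusted p under 0.05 in limma. That gene, Rragc, which encodes a GTPase of the nutrient-sensing complex, averaged 38.2 ± 2.58 FPKM in the libraries labelled knockdown and 32.6 ± 3.31 FPKM in the control libraries (SD, n = 3 each). Its log2 difference was 0.23 in FPKM (limma adjusted p = 0.184) and −0.074 in fragments (edgeR adjusted p = 0.484), opposite in sign. Tfe3, a relative of Tfeb, had 21.4, 22.2 and 25.6 FPKM, against 23.8, 23.9 and 19.8 FPKM in the control libraries, with overlapping groups. Of the 18 other membrane proteins limma called none, with 4 at an unadjusted p under 0.05, while edgeR called Ostm1 and Laptm4a higher. Ostm1, a partner of a lysosomal chloride transporter, averaged 26.0 ± 0.89 FPKM in the libraries labelled knockdown and 21.8 ± 1.93 FPKM in the control libraries (SD, n = 3 each). Its log2 difference was 0.26 (limma adjusted p = 0.111; edgeR adjusted p = 0.0146). The 3 cystatins, which inhibit cysteine cathepsins, all had estimates above 0, from 0.11 to 0.19 on the log2 scale, and none passed in limma or edgeR, with 1 at an unadjusted p under 0.05 in limma. Of them Cst3, the secreted cystatin C, had 267, 256 and 270.7 FPKM, against 244, 245 and 244 FPKM in the control libraries, without overlap (log2 0.11, limma adjusted p = 0.129).

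**Figure D5:**
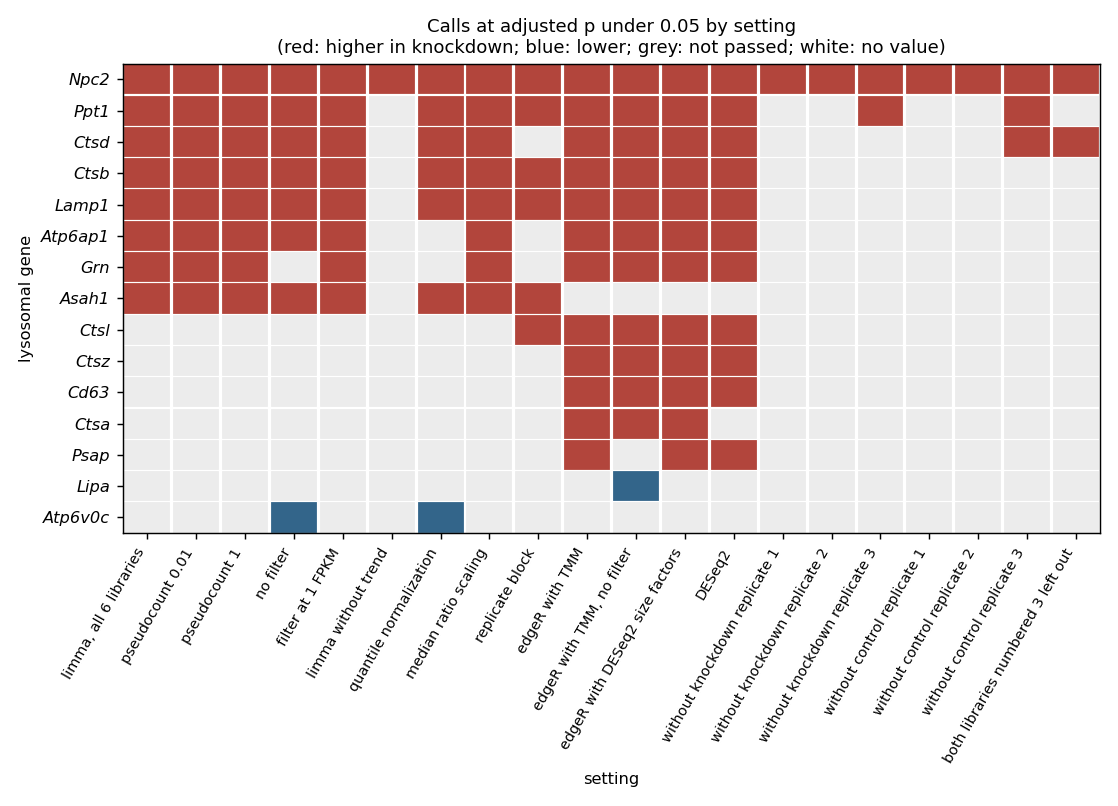
Calls of lysosomal genes under each setting of the analysis, with genes as rows and settings as columns; red cells mark genes called higher in the libraries labelled knockdown, blue cells genes called lower and grey cells genes that did not pass. Npc2 is red in every column, and blue appears for Atp6v0c and Lipa only.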

How the data were processed

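RNA of 6 libraries of total RNA freed of ribosomal RNA was read, 3 a group. Per the submitters' processing notes, cutadapt, HISAT2 2.0.4, Cufflinks and Cuffdiff 2.2.1 were used, and the builds mm10 and mm9 are named without roles. Starts in the table matched GRCm38 for 6261 genes once 1 was added, and for 472 as written. The authors deposited FPKM values per library, and estimated counts per library scaled by a constant that was divided out, which left 89.6% to 90.4% of values whole within 0.01. Neither the annotation release nor strand use is given in the sources used here. Values were tested as log2(FPKM + 0.1) with limma 3.58.1 (R 4.3.3), trend on, for genes with at least 0.5 FPKM in at least 3 libraries; a fold change on this scale understates that of low genes. p-values were adjusted over 11612 genes, with a threshold of 0.05. Recovered fragments, rounded, were tested with edgeR 4.0.16 and DESeq2 1.42.0 as alternatives. The default limma, edgeR and DESeq2 fits were tried on simulated data, and the alternative settings were not. The planted changes were larger than those called among the lysosomal genes, so the trial does not cover changes of that size. Of 22565 rows, 79 symbols on several rows were summed. The genes and lists were chosen with earlier results of these data known. By rule, named genes were those limma called, the gene of highest FPKM and of smallest p in each class, Tfeb, genes under the filter, and up to 3 of smallest p in each pathway list; the others were named after their values were seen. Table positions of Ctsk and Ctss are 1 shared locus spanning other genes, and Idua shares its locus with Tmem175. A printed locus can thus be wider than its gene. Library numbers did not pair the groups (r of deviations 0.037, −0.004 and 0.100). The values of 1 gene of the pathway lists are not reported here.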

Additional observations from a re-analysis of the deposited data

How the results depend on the processing

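Of the 43 lysosomal genes, limma called 8, against 1 without the trend, 2 with both libraries numbered 3 left out and 1 to 3 with 1 library left out. The other settings gave 6 to 12 calls, but not always of the same genes: Grn was lost without a filter, with quantile normalization and with the replicate block, Atp6ap1 with the last 2 of these, Ctsd with the block, and Asah1 in edgeR and DESeq2. Atp6v0c was called lower without a filter and with quantile normalization, and Lipa lower in edgeR without a filter. Of all genes limma called 400, against 144 without the trend, 1150 in edgeR, 1168 in edgeR without a filter, 1153 in edgeR with DESeq2 size factors, 717 in DESeq2, 76 with both libraries numbered 3 left out and 44 to 178 with 1 library left out. Of the 80 other pathway genes limma called 3, against 5 with median ratio scaling, 11 in edgeR, 10 without its filter, 11 with DESeq2 size factors, 8 in DESeq2, and 0 to 2 with 1 library left out. It called 0 of them without the trend, where 18 had an unadjusted p under 0.05, beside 2439 of all 11612 tested genes. It called 0 with both libraries numbered 3 left out, where 23 of the 80 did, beside 2486 of all 11647 genes tested there. Library numbers did not pair the groups, and not every library correlated best with its own number; with the replicate block limma called 243 of all genes, 6 of the 43 and 1 of the 80. Rragc turned from 0.23 in limma to −0.074 in edgeR, −0.077 without its filter, −0.076 with DESeq2 size factors and −0.076 in DESeq2; the cause was not tested. No scaling moved the median of all genes by over 0.1. With 3 libraries a group, depth limits Ctsf, Ctsk and Ctss, each at 20 fragments or fewer a library.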

Other observations

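A further 82 genes carry the term Lysosome in the authors' deposited table and are none of the 45; this list was added after the table was seen and shares genes with the pathway lists. Of the 65 tested, limma called 2 higher and none lower, with a median log2 fold change of 0.073, 46 estimates above 0 and 19 below; the share called is close to the 1.83% of all tested genes called higher (2.57% of those at 10 FPKM or more). edgeR called 7 of them higher and 1 lower, beside 5.45% and 4.5% of all genes it tested. Dnase2a, the acid DNase of lysosomes, had 11.6, 10.3 and 16.1 FPKM in the libraries labelled knockdown, against 8.37, 9.75 and 10.7 FPKM in the control libraries. Its groups overlapped in FPKM (log2 0.38, limma adjusted p = 0.251), while edgeR on fragments called it higher (log2 0.71, adjusted p = 0.00489). Mpeg1, listed as a macrophage marker, had 14.97, 14.6 and 14.7 FPKM in the libraries labelled knockdown, against 11.9, 13.0 and 12.1 FPKM in the control libraries, without overlap (limma adjusted p = 0.083; edgeR adjusted p = 0.00981). Its part in the result for lysosomal genes was not tested. Manba, the beta-mannosidase, had log2 differences of opposite sign in FPKM (0.025) and in fragments (−0.22), and neither passed.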
